A study of Canis lupus familiaris with 6 samples.

Results

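Toll-like receptors and the adaptors that carry their signal were examined in canine keratinocytes exposed to cold atmospheric microwave plasma (CAMP). The members were taken from the gene table by symbol: the receptors TLR2, TLR3, TLR4, TLR5, TLR6 and TLR9, and the adaptors and kinases MYD88, IRAK1, IRAK4 and TRAF6. All 10 were found among the 35993 genes of the table. CPEK cells, a line of canine progenitor epidermal keratinocytes with the wild-type genotype, were treated directly with CAMP for 30 s (dCAMP, 3 libraries) or with the gas without plasma (gas control, 3 libraries). The medium was replaced after 15 min, and RNA was taken 24 h later in both groups. The comparison asks which receptors these cells transcribed and whether the receptors or their adaptors differed between dCAMP-treated cells and the gas control. The labels do not say whether the libraries of a group came from separate cultures, so the p-values measure the spread between these samples, which may be technical. CPEK is a single line, and the libraries hold bulk RNA, in which fewer cells of a type and less RNA per cell cannot be told apart.

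Toll-like receptors recognise microbial products and some products of damaged cells, and keratinocytes, as the outer layer of the skin, are among the non-immune cells that carry them. TLR2, TLR4, TLR5 and TLR6 act at the cell surface, where they bind lipoproteins, lipopolysaccharide and flagellin, whereas TLR3 and TLR9 bind nucleic acids inside endosomes. Except for TLR3, these receptors recruit MYD88, which assembles IRAK4 and IRAK1. TRAF6 then passes the signal on to the kinases that release NF-kB.

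The libraries held 43084921 to 54082634 counts. A count of 0 allowed up to 3 counts, or 0.0555 to 0.0696 CPM (counts relative to the library total), and this limit covers counting error only. CPM values below are scaled with edgeR's TMM factors. The 10 keratinocyte markers were all detected, at a summed 53764 to 64178 CPM in the gas control and 50873 to 54131 CPM after dCAMP. Of the 8 macrophage and dendritic cell markers, 5 were at 0 in every library (PTPRC, CSF1R, CD163, CD207 and AIF1), and the summed level of the list was 3.34 to 5.44 CPM in the gas control and 4.90 to 5.95 CPM after dCAMP. The lymphocyte list summed to 0.792 to 2.09 CPM in the gas control and 0.793 to 1.06 CPM after dCAMP, with CD3E, CD4, CD8A and MS4A1 at 0. Fibroblast markers (DCN and LUM at 0) summed to 1.60 to 2.17 and 1.35 to 1.77 CPM, endothelial markers (PECAM1 at 0) to 15.6 to 18.4 and 18.8 to 24.7 CPM, and melanocyte markers (TYR and DCT at 0) to 0.456 to 0.843 and 0.604 to 0.841 CPM, in the gas control and after dCAMP, respectively. The most counted markers of other cell types were VWF (566 to 842 counts), KDR (158 to 277) and ITGAM (151 to 208). In edgeR, MLANA, KDR, ITGAM and CDH5 were higher and COL1A1 was lower after dCAMP at an unadjusted p under 0.05. Such a p was reached by 4 of the 10 keratinocyte markers and by 20.7% of the 14708 genes tested. The adjusted p of all these markers was 0.221 or above. The part of other cell types in the results below was not tested. The 3 gas libraries lay farther apart than the 3 dCAMP libraries for most members. Gas 1 and gas 3 were at opposite ends for TLR3, TLR4, MYD88, IRAK1, IRAK4 and TRAF6. Values without gas 1 or without gas 3, or ranges with 1 library left out, are therefore given beside many results that move with them.

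All 6 member receptors were above detection, taken as more than 3 counts in every library. TLR5, the flagellin receptor, held 240 to 306 counts per library, and TLR3, which binds viral RNA, held 47 to 265. TLR9, which binds unmethylated CpG DNA, held 25 to 42 counts. The remaining receptors stood only just above the limit: TLR2, the lipoprotein receptor, at 5 to 21 counts, TLR4, the lipopolysaccharide receptor, at 4 to 16, and TLR6, a partner of TLR2, at 4 to 13. With a minimum of 10 counts in every library, 3 receptors remained, namely TLR3, TLR5 and TLR9.

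The receptors outside the member list were low or not detected. TLR1, the other partner of TLR2, held 2, 10 and 7 counts in gas 1, 2 and 3 and 10, 10 and 14 counts in dCAMP 1, 2 and 3, so it passed the limit in 5 of 6 libraries. Its mean of 0.0630 FPKM over the 6 libraries (0.0147 to 0.113) lay between those of TLR4 and TLR6. TLR7 and TLR8, which bind RNA in endosomes, and TLR10 were at 0 counts in all 6 libraries. At this depth, 0 counts allowed at most 3 counts in each of these libraries.

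Levels of different genes were compared as FPKM, which corrects for transcript length. TLR5 was the highest receptor, with 1.24, 1.40 and 1.03 FPKM in gas 1, 2 and 3 and 1.19, 1.26 and 1.45 FPKM in dCAMP 1, 2 and 3. It was above TLR3 in 6 of 6 libraries, by 1.14-fold to 6.56-fold, and the ranges of the 2 genes did not overlap. The gap between these ranges was narrow, from 1.02 FPKM for TLR3 to 1.03 FPKM for TLR5. TLR3 followed with 0.190, 0.549 and 0.903 FPKM in the gas control and 0.893, 0.988 and 1.02 FPKM after dCAMP.

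The lower receptors formed an order that was less clear. TLR9 had a mean of 0.169 FPKM over the 6 libraries (range 0.117 to 0.228) and was below TLR3 in 6 of 6 libraries, although in gas 1 the ratio of TLR3 to TLR9 was only 1.05. TLR2 had a mean of 0.0920 FPKM (0.0433 to 0.170) and was below TLR9 in 6 of 6 libraries, with overlapping ranges. TLR4, with a mean of 0.0690 FPKM (0.0199 to 0.106), was below TLR2 in 4 of 6 libraries, and TLR6, with a mean of 0.0348 FPKM (0.0225 to 0.0683), was below TLR4 in 5 of 6. The neighbours TLR2 and TLR4, and TLR4 and TLR6, therefore did not differ beyond the spread between libraries.

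The adaptors were far above the receptors. MYD88 had a mean of 44.5 FPKM over the 6 libraries (38.0 to 53.4), IRAK1 of 33.2 (27.0 to 46.4), IRAK4 of 11.1 (5.06 to 13.3) and TRAF6 of 7.57 (6.18 to 8.29). The lowest adaptor value, 5.06 FPKM for IRAK4 in gas 1, exceeded the highest receptor value, 1.45 FPKM for TLR5 in dCAMP 3. MYD88 was above IRAK1 in 6 of 6 libraries, by 1.15-fold to 1.51-fold, and IRAK1 was above IRAK4 in 6 of 6, by 2.02-fold to 9.18-fold. IRAK4 was above TRAF6 in 5 of 6 libraries, and gas 1 was the exception.

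**Figure D1:**
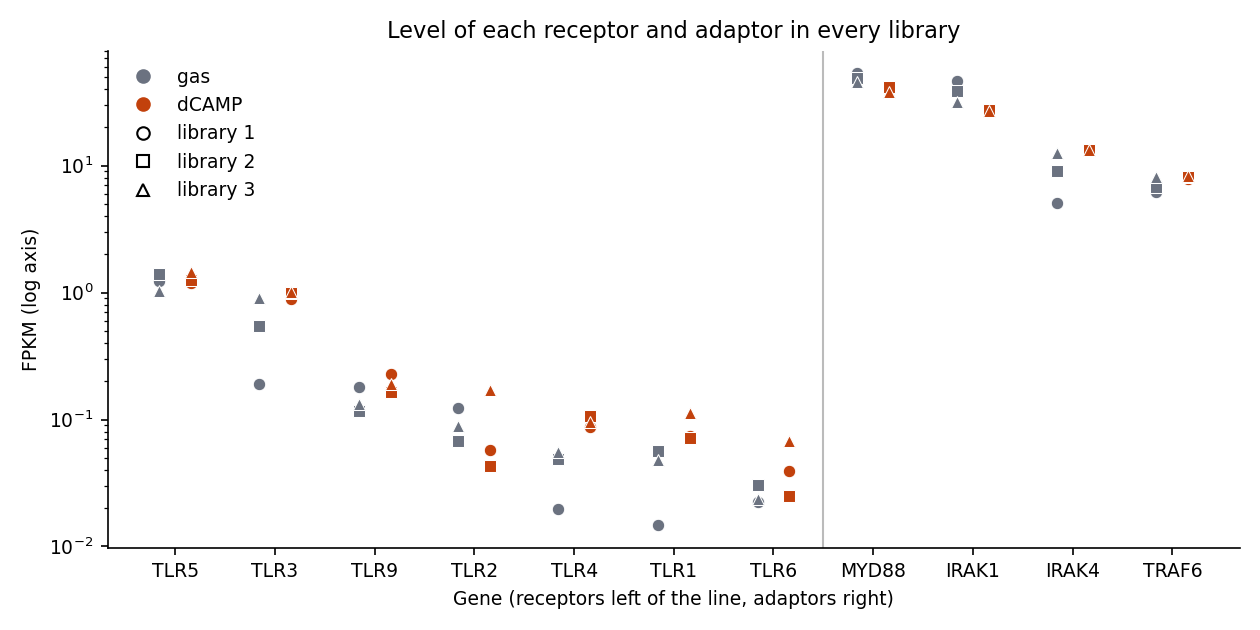
FPKM on a log axis for 7 receptors, ordered by mean, and 4 adaptors in each of the 6 libraries; grey symbols are gas libraries, orange symbols dCAMP libraries, and shapes give the library number. TLR5 and TLR3 lie near 1 FPKM apart from the lower TLR3 values of gas 1 and gas 2, the other receptors lie below 0.3 FPKM, and every adaptor value lies above 5 FPKM (TLR7, TLR8 and TLR10, at 0, cannot be drawn).

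Dog gene models place the members on 10 chromosomes of CanFam3.1. TLR2 (gene ID 448807) lies on chromosome 15 from 51454557 to 51465429, TLR4 (403417) on chromosome 11 from 71356390 to 71367166, TLR5 (488605) on chromosome 38 from 23700323 to 23705628 and TLR3 (482905) on chromosome 16 from 44617012 to 44633591. TLR6 (111089957), on chromosome 3 from 73504357 to 73523964, overlaps the locus of TLR1, which is a close relative in sequence. TLR9 (403502), on chromosome 20 from 37529322 to 37547117, overlaps TWF2, a gene with 1827 to 2817 counts per library. How reads on overlapping or similar genes were assigned is not given in the sources used here, so the low counts of TLR6, TLR1 and TLR9 are uncertain to that extent. MYD88 (477024) lies on chromosome 23 from 7901578 to 7905274, IRAK1 (492247) on chromosome X from 121853340 to 121862582, IRAK4 (486601) on chromosome 27 from 10313782 to 10340652 and TRAF6 (100688110) on chromosome 18 from 31674242 to 31689160. The overlapping annotated transcript of TLR9, which starts at the first base of TWF2, held 0 counts in every library. All counts given to TLR9 were on a form from 37542795 to 37547117, outside TWF2, which ends at 37539955.

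Of the members, 9 passed edgeR's filter on low counts, and TLR6 did not. None of the 9 was called, either by the 2-fold rule, which also asks for an unadjusted p under 0.05 (1.09% of the 14708 genes tested, 0.959% higher and 0.136% lower), or by an adjusted p under 0.05 (0% of the genes tested) in edgeR's quasi-likelihood test. An unadjusted p under 0.05 was reached by 3 of the 9, with TLR4 higher and MYD88 and IRAK1 lower after dCAMP, where the share over all genes tested was 20.7% (6.81% higher and 13.9% lower). The CPM ranges of gas and dCAMP libraries did not overlap for 4 of the 9 members, TLR4 and IRAK4 being higher and MYD88 and IRAK1 lower after dCAMP, against 39.9% of all genes tested (19% higher and 20.9% lower). A positive log2 fold change was found for 6 of the 9, against 52.4% of all genes tested. The median log2 fold change of the 9 members was 0.21, beside 0.03 over all genes tested. It was 0.10 without gas 1, where the median of all genes was 0.01, and 0.30 without gas 3, where the median of all genes was -0.03.

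TLR4 signals from the cell surface and, once internalised, from endosomes. Its counts were 4, 10 and 11 in gas 1, 2 and 3 and 15, 16 and 16 in dCAMP 1, 2 and 3, or 0.0864, 0.190 and 0.207 CPM and 0.324, 0.373 and 0.354 CPM. Every dCAMP library was above every gas library, and gas 1 was the lowest. The gas control averaged 0.161 ± 0.0654 CPM and the dCAMP-treated cells 0.350 ± 0.0250 CPM (SD, n = 3 each). The log2 fold change was 0.94 ± 0.39 (SE), a 1.92-fold difference, with an edgeR unadjusted p of 0.0290 and an adjusted p of 0.225. A prior count of 2 shrank this estimate, and the SE was set on the nearly unshrunken value of 1.09.

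The difference in TLR4 rested on few reads. The summed counts were 25 in the gas control, with an exact Poisson 95% interval of 16.2 to 36.9, and 47 after dCAMP, with an interval of 34.5 to 62.5, which cover counting error only. The edgeR unadjusted p was 0.0375 without gas 3 (log2 fold change 1.07) and 0.0569 to 0.0920 when any other library was left out, with the smallest log2 fold change, 0.69, without gas 1. TLR4 passed the 2-fold rule with edgeR's default prior count (log2 fold change 1.09, unadjusted p = 0.0290) and with DESeq2 after removing genes with a 0 in any library (1.09, unadjusted p = 0.0347). On the scale of log2(FPKM + 1), which understates differences of low genes, the difference of TLR4 was 0.07. TLR4 is among the genes that the study selected on these samples, so its direction here is not independent evidence. The study also reports higher TLR4 after dCAMP by qRT-PCR, on RNA extracted with another reagent, and those values were not examined here.

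Co-receptors of TLR4 were read from the same table. LY96, which encodes MD-2, the protein that holds lipopolysaccharide for TLR4, had 0, 95 and 270 counts in gas 1, 2 and 3 and 304, 335 and 379 counts in dCAMP 1, 2 and 3. The dCAMP libraries were all higher than the gas libraries, as for 19% of all genes tested, but the gas libraries ran from 0 to 5.09 CPM. The log2 fold change of LY96 was 1.70 ± 1.11 (SE), with an edgeR adjusted p of 0.339, and it ranged from 1.12 without gas 1 to 2.94 without gas 3. CD14, which delivers lipopolysaccharide to that complex, had 21, 53 and 64 counts in the gas control and 46, 35 and 75 after dCAMP, and the groups overlapped (log2 fold change 0.36, edgeR adjusted p = 0.564). LBP, the serum protein that binds lipopolysaccharide, was found only as 3 counts in gas 1, and CD36, a scavenger receptor that assists TLR2 and TLR6, was at 0 counts in every library.

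TLR2 forms pairs with TLR1 or TLR6. Its counts were 16, 12 and 13 in the gas control and 8, 5 and 21 after dCAMP, or 0.346, 0.228 and 0.245 CPM and 0.173, 0.117 and 0.465 CPM. The highest and the lowest values were both from dCAMP libraries, so the groups overlapped fully. The log2 fold change was -0.09 ± 0.56 (SE) with a 95% interval of -1.45 to 1.24 (edgeR adjusted p = 0.907), and its sign was positive without gas 1, dCAMP 1 or dCAMP 2.

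TLR6 held 4, 7 and 6 counts in the gas control and 8, 5 and 13 after dCAMP, or 0.0864, 0.133 and 0.113 CPM and 0.173, 0.117 and 0.288 CPM. The groups overlapped because dCAMP 2 lay between the gas libraries. On the scale of log2(CPM + 0.5), the mean was 0.17 higher after dCAMP, and a two-sided exact permutation test over the 20 ways to divide the libraries gave p = 0.2, where the smallest possible p is 0.1. The added 0.5 exceeds these CPM values, so this scale understates the difference. Without the filter, edgeR gave TLR6 a log2 fold change of 0.61 (adjusted p = 0.456). For TLR1, the difference on log2(CPM + 0.5) was 0.28 with an exact permutation p of 0.1, and its gas 2 and dCAMP libraries all held 10 or more counts. The log2 fold change of TLR1 in edgeR without the filter was 0.83 (adjusted p = 0.392).

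TLR5 had more counts than any other receptor except in gas 3, where TLR3 held 265. TLR5 held 267, 306 and 263 counts in the gas control and 263, 240 and 284 after dCAMP. The levels were 5.77, 5.81 and 4.96 CPM in gas 1, 2 and 3 and 5.68, 5.60 and 6.29 CPM in dCAMP 1, 2 and 3. The groups overlapped, with means of 5.51 ± 0.481 CPM and 5.85 ± 0.376 CPM (SD, n = 3 each). The log2 fold change was 0.09 ± 0.13 (SE), and its 95% interval of -0.22 to 0.39 leaves out a 2-fold difference in either direction (edgeR adjusted p = 0.646). The direction of TLR5 turned under another scaling, with -0.0051 under upper-quartile factors and -0.078 with a correction for gene length.

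Among the endosomal receptors, TLR3 had the widest spread within the gas control. It was 1.02, 3.02 and 5.00 CPM in gas 1, 2 and 3 and 4.92, 5.37 and 5.56 CPM in dCAMP 1, 2 and 3. The dCAMP libraries lay close together, gas 1 was the lowest of all, and gas 3 reached above dCAMP 1, so the groups overlapped. The gas control averaged 3.01 ± 1.99 CPM and the dCAMP-treated cells 5.28 ± 0.326 CPM (SD, n = 3 each). This gave a log2 fold change of 0.80 ± 0.50 (SE) with an edgeR adjusted p of 0.329. The log2 fold change of TLR3 was 0.38 without gas 1 and 1.32 without gas 3. In the fit without gas 3, TLR3 and TLR4 passed the 2-fold rule, as did 10.2% of the genes tested in that fit.

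TLR9 was 0.691, 0.475 and 0.547 CPM in the gas control and 0.906, 0.653 and 0.752 CPM after dCAMP. The groups overlapped, with dCAMP 2 below gas 1. The means were 0.571 ± 0.11 CPM and 0.771 ± 0.128 CPM (SD, n = 3 each), and the log2 fold change was 0.41 ± 0.25 (SE) with an edgeR adjusted p of 0.312. Its lowest value when a library was left out was 0.27, without gas 2.

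**Figure D2:**
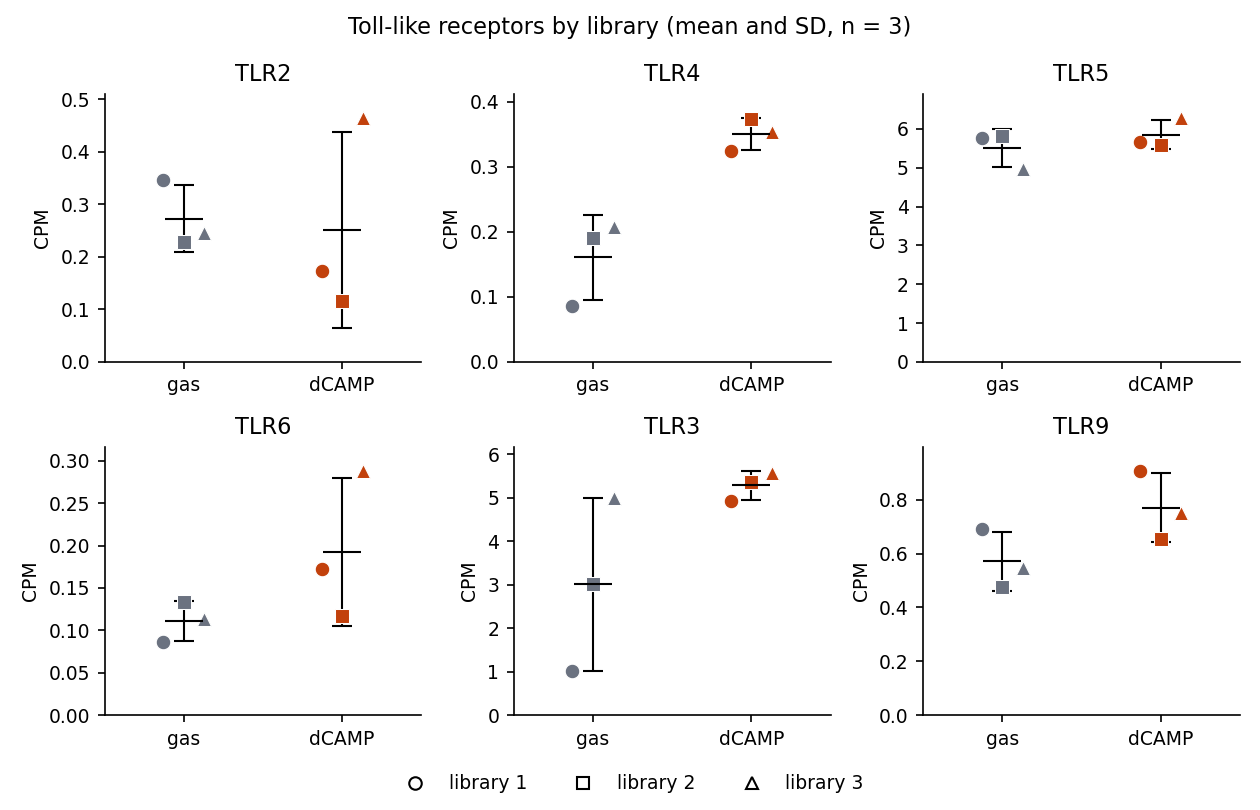
CPM of the 6 member receptors in each library, with the vertical axes starting at 0; symbols give the library number, and the bars show the mean and SD of 3 libraries. Only the TLR4 panel shows groups that do not overlap, and in the TLR3 panel gas 1 to gas 3 span 1.02 to 5.00 CPM while the dCAMP libraries span 4.92 to 5.56 CPM.

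MYD88, the adaptor shared by most Toll-like receptors and by the interleukin-1 receptor family, was 114.0, 107.9 and 100.9 CPM in gas 1, 2 and 3. In dCAMP 1, 2 and 3 it was 87.7, 90.0 and 83.1 CPM. Every dCAMP library was below every gas library. The means were 107.6 ± 6.56 CPM in the gas control and 86.9 ± 3.52 CPM after dCAMP (SD, n = 3 each). For MYD88 the log2 fold change was -0.31 ± 0.087 (SE), or 1.24-fold lower, with an edgeR unadjusted p of 0.0113 and an adjusted p of 0.221.

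IRAK4 is the first kinase to join MYD88. It was 12.3, 21.5 and 29.9 CPM in gas 1, 2 and 3 and 32.3, 31.5 and 32.4 CPM in dCAMP 1, 2 and 3. The dCAMP libraries were nearly equal and all above the gas libraries, of which gas 3 came closest. For IRAK4 the log2 fold change was 0.59 ± 0.30 (SE), a 1.51-fold difference, with an edgeR adjusted p of 0.278. It was 0.30 without gas 1 and 0.88 without gas 3.

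IRAK1, the kinase that IRAK4 phosphorylates, showed the opposite arrangement, with 171.8, 147.7 and 122.4 CPM in gas 1, 2 and 3 and 104.7, 103.2 and 102.2 CPM in dCAMP 1, 2 and 3. All gas libraries were higher than all dCAMP libraries, and gas 3 was again the nearest to them. For IRAK1 the log2 fold change was -0.51 ± 0.13 (SE), or 1.42-fold lower, with an edgeR unadjusted p of 0.00762 and an adjusted p of 0.221. It ranged from -0.67 without gas 3 to -0.41 without gas 1.

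Because both kinases sit in the same complex, their ratio was taken in each library. The FPKM of IRAK4 relative to IRAK1 was 0.109, 0.235 and 0.396 in gas 1, 2 and 3 and 0.485, 0.486 and 0.494 in dCAMP 1, 2 and 3. The ratio was thus highest in the dCAMP libraries, where it hardly varied, and lowest in gas 1. Its mean was 0.247 ± 0.144 in the gas control and 0.488 ± 0.00484 after dCAMP (SD, n = 3 each). A two-sided exact permutation test of the log2 ratio gave p = 0.1, the smallest possible over the 20 splits. IRAK4 was higher and IRAK1 lower in every dCAMP library than in every gas library. This fixed the outcome of the test, so no conclusion is drawn from it. The FPKM of MYD88 relative to IRAK1 was 1.15, 1.26 and 1.43 in the gas control and 1.45, 1.51 and 1.41 after dCAMP. There the groups overlapped (exact permutation p = 0.2). Both ratios were formed after the values had been seen.

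TRAF6, the ubiquitin ligase after the IRAK kinases, was 28.3, 31.9 and 38.5 CPM in the gas control and 37.2, 38.3 and 38.9 CPM after dCAMP. The groups overlapped, since gas 3 lay among the dCAMP libraries. For TRAF6 the log2 fold change was 0.21 ± 0.13 (SE), with an edgeR adjusted p of 0.329, and was 0.10 without gas 1 and 0.06 with a correction for gene length.

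**Figure D3:**
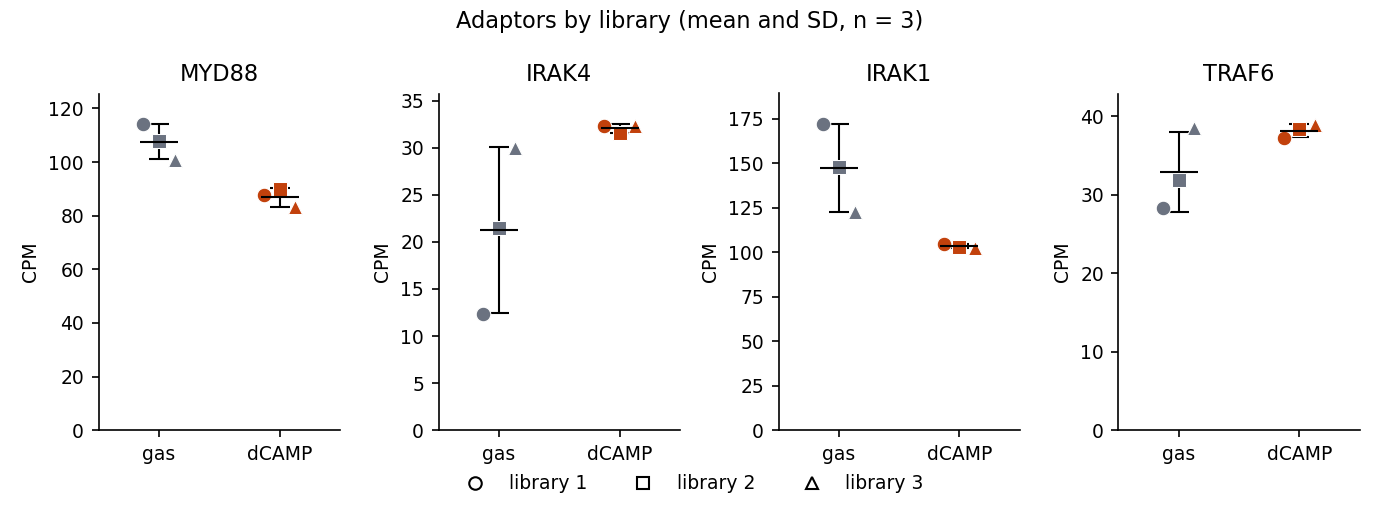
CPM of MYD88, IRAK4, IRAK1 and TRAF6 in each library, with the vertical axes starting at 0; symbols give the library number, and the bars show the mean and SD of 3 libraries. MYD88 and IRAK1 are lower and IRAK4 is higher in all 3 dCAMP libraries than in all 3 gas libraries, and gas 3 lies nearest to the dCAMP libraries in each panel.

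Without gas 3, adjusted p-values under 0.05 were reached by 3 members in edgeR, where 33.1% of all genes tested passed. They were MYD88 (log2 fold change -0.40, adjusted p = 0.0237), IRAK1 (-0.67, adjusted p = 0.0203) and IRAK4 (0.88, adjusted p = 0.0402). When any other single library was left out, 0 members passed this threshold. With limma's voom and sample quality weights, 7 of the 9 members passed it, as did 60.8% of all genes tested.

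**Figure D4:**
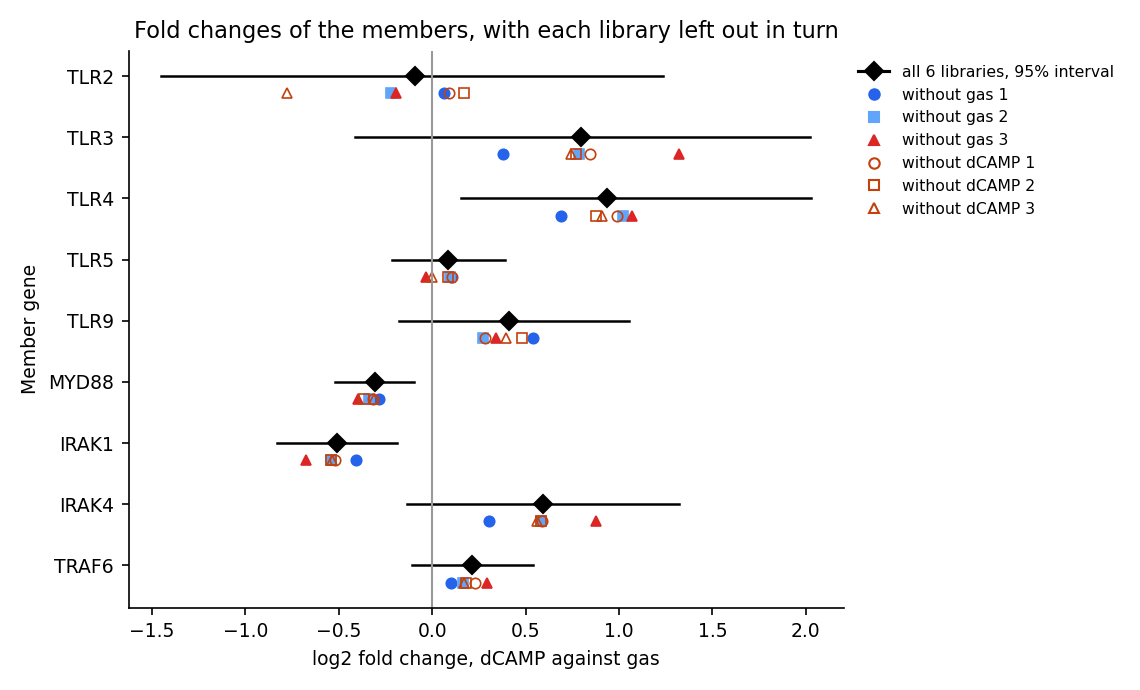
Log2 fold change of dCAMP against gas for the 9 members tested; black diamonds show the fit of all 6 libraries, black lines its 95% interval (set on the estimate with little shrinkage, hence not centred for low counts), and coloured symbols the fits with a library left out. The intervals of TLR4, MYD88 and IRAK1 do not cross 0, and the fits without gas 1 and without gas 3 lie farthest apart for TLR3 and IRAK4.

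The transcript table shows which annotated forms carried these counts. TLR4 and TRAF6 have 1 annotated transcript each, and TLR3, TLR6 and TLR9 had counts on 1 transcript only. TLR2 had counts on 2 of 4 transcripts, the second of them only in gas 2, with 9 counts. MYD88 and IRAK1 were each carried by a main transcript, with 95.6% to 97.8% and 91.0% to 94.9% of the gene's counts, respectively, in every library. TLR5 was spread over 3 transcripts, and its form of 3037 bases held 0% of the counts in gas 1 but 50.7% in gas 2 and 19.8% to 29.6% in the other libraries.

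IRAK4 was the most divided member, with counts on 9 of 10 annotated transcripts, 5 of them in all 6 libraries. Its main form, of 2127 bases, held 73.3%, 56.7% and 57.3% of the counts in gas 1, 2 and 3 and 85.7%, 76.2% and 44.2% in dCAMP 1, 2 and 3. In dCAMP 3 a form of 2200 bases held 38.0% of the counts, whereas it held at most 0.71% in every other library. The CPM of the whole gene in dCAMP 3, 32.4, was nevertheless close to those of dCAMP 1 and dCAMP 2, so the division between forms differed among libraries whose gene totals were alike. No test was made between transcripts, since the assignment of reads to overlapping forms is an estimate.

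The remaining genes of the pathway were taken from lists ordered by role. Of 71 genes listed, 70 were found, 11 were at 0 in every library and 50 were tested, of which 25 had a higher and 25 a lower level after dCAMP. None was called by either rule in edgeR, and 16 of the 50 reached an unadjusted p under 0.05, 7 higher and 9 lower, against 20.7% of all genes tested, 6.81% higher and 13.9% lower. Their median log2 fold change was 0.01, beside 0.03 over all genes tested. Without gas 3, edgeR's adjusted p was under 0.05 for 27 of 51, 12 higher and 15 lower, against 33.1% of all genes tested in that fit, 15% higher and 18.1% lower.

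The other adaptors with a TIR domain, the fold through which receptors and adaptors bind, all had lower means after dCAMP and none was called. TICAM1, the adaptor of TLR3 also known as TRIF, was 36.1, 29.5 and 24.4 CPM in gas 1, 2 and 3 and 22.3, 22.6 and 22.4 CPM in dCAMP 1, 2 and 3. The groups did not overlap, as for 20.9% of all genes tested in this direction. Gas 3 was again the nearest to the dCAMP libraries (log2 fold change -0.42 ± 0.16 SE, edgeR unadjusted p = 0.0346, adjusted p = 0.230). The log2 fold change of TICAM1 was -0.29 without gas 1 and -0.60 without gas 3. TICAM2, which links TICAM1 to TLR4, had a log2 fold change of -0.33 (edgeR adjusted p = 0.255), and TIRAP, which brings MYD88 to TLR2 and TLR4, of -0.21 (edgeR adjusted p = 0.367). SARM1, another TIR protein, held 0 to 3 counts per library. The 4 genes for trafficking and folding of receptors had 2 higher and 2 lower levels, and CNPY3, a chaperone of several receptors, had a log2 fold change of -0.42 (edgeR adjusted p = 0.224).

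In the list of kinase and ubiquitin relay genes, which do not all act after TRAF6, 10 of 16 genes tested had higher and 6 lower levels. An unadjusted p under 0.05 was reached by 5 of them. Over all genes tested, 52.4% were higher and 20.7% had such a p. PELI1, a ubiquitin ligase that modifies IRAK1, had a log2 fold change of 0.66 (0.48 to 0.83 with 1 library left out). The PELI1 locus overlaps LOC610383, a gene with 112 to 304 counts per library. TAB1, a subunit of the TAK1 kinase complex, was at -0.33, the NF-kB kinase IKBKB at -0.26 and its relative IKBKE at -0.32. Of 8 inhibitors, 4 were higher and 4 lower. CYLD, which removes ubiquitin chains from TRAF6 and others, had a log2 fold change of 0.71 (0.49 to 0.89 with 1 library left out). The adjusted p of each of these genes in edgeR was 0.221 or above.

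Of the 10 NF-kB and IRF factors tested, 9 had lower levels after dCAMP, where 52.4% of all genes tested were higher. The list's median log2 fold change was -0.26, beside 0.03 over all genes tested. This median was -0.18 without gas 1 and -0.40 without gas 3, where those of all genes were 0.01 and -0.03. An unadjusted p under 0.05 was reached by 2 of the 10, against 20.7% of all genes tested. NFKBIB, an inhibitor that holds NF-kB in the cytoplasm, was at -0.41, and RELA, a subunit of NF-kB that activates transcription, at -0.32. The 2 MYD88-linked interleukin receptors tested both had higher levels, with IL1R1, the receptor of interleukin-1, at 0.36. The lowest value of IL1R1 over the alternatives was 0.16, and its locus overlaps LOC102157304, with 16 to 46 counts per library. IL18R1, IL18RAP and IL1RL1 were at 0 counts in every library. The adjusted p of NFKBIB, RELA and IL1R1 was 0.221 to 0.226 in edgeR.

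NF-kB targets known from keratinocytes were the list with the most genes near 0. Of 14 listed, 5 were tested, and the cytokine genes IL6, TNF and CSF2 were at 0 counts in all libraries. Of the 5, 4 had higher levels, against 52.4% of all genes tested, and the list's median log2 fold change was 0.70, beside 0.03 over all genes tested. This median was 0.51 without gas 1 and 0.87 without gas 3, where those of all genes were 0.01 and -0.03. ICAM1, the lower one, had the highest level of the 5, at 141.1 to 181.7 CPM in the gas control and 148.8 to 155.4 CPM after dCAMP. Its log2 fold change was -0.08 (edgeR adjusted p = 0.642). BIRC3, an inhibitor of apoptosis, was 17.7, 19.1 and 21.0 CPM in the gas control and 24.5, 28.8 and 26.9 CPM after dCAMP. PTGS2, which makes prostaglandins, was 16.7, 14.2 and 21.5 CPM in the gas control and 37.4, 24.5 and 30.5 CPM after dCAMP.

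For both genes every dCAMP library was above every gas library, as for 19% of all genes tested. Both were named for their small p, so this separation adds no evidence. The log2 fold changes of BIRC3 and PTGS2 were 0.47 ± 0.12 and 0.82 ± 0.22 (SE). IL1A, an alarm cytokine of keratinocytes, had a log2 fold change of 0.70 ± 0.22 (SE), or 0.51 to 0.87 with 1 library left out. Its locus overlaps that of IL37. The adjusted p of BIRC3, PTGS2 and IL1A was 0.221 in edgeR. DESeq2 called BIRC3 (adjusted p = 0.0486) and PTGS2 (adjusted p = 0.0427), but not after genes with a 0 in any library were removed (adjusted p = 0.0773 and 0.0601). A correction for gene length took the log2 fold change of BIRC3 to 0.29.

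**Figure D5:**
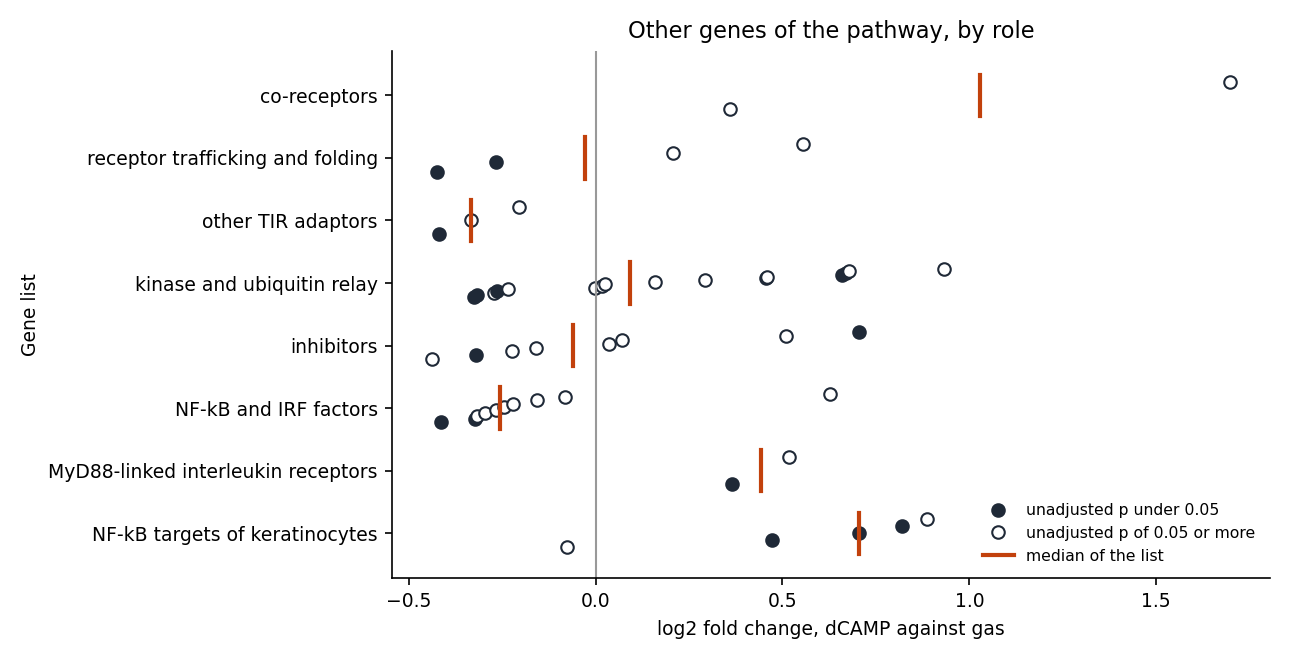
Log2 fold change of dCAMP against gas for the 50 other pathway genes tested, 1 circle per gene, by list; filled circles have an unadjusted p under 0.05, and the orange line is the median of the list. NF-kB and IRF factors lie mostly left of 0, with a median of -0.26, and NF-kB targets mostly right of it, with a median of 0.70.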

How the data were processed

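Stranded mRNA libraries of 3 gas and 3 dCAMP samples were analysed. The authors trimmed reads (FastQC 0.11.7, Trimmomatic 0.38), mapped them to CanFam3.1 (HISAT2 2.1.0) and summarized known transcripts (StringTie 2.1.3b). They deposited raw read counts, as whole numbers for each gene and transcript, together with FPKM values, which the authors scaled to transcript length and mapped reads. TPM columns were not used, and the annotation release is not given in the sources used here.

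Counts were compared with edgeR 4.0.16 in R 4.3.3 (TMM factors, filterByExpr, quasi-likelihood test, prior count 2, Benjamini-Hochberg adjustment over 14708 genes). Standard errors came from the F statistic and the log2 fold change at a prior count of 0.125. Genes under the filter were tested by exact permutation of log2(CPM + 0.5), and the ratios of adaptors by the same permutation of their log2. Exact Poisson intervals were computed with scipy 1.17.1. The fits of counts with edgeR, DESeq2 and voom were tested on simulated counts. Changes were set only in well-counted genes, with the same spread in both groups. That test therefore does not cover changes in the low receptors or the wider spread of the gas libraries. Alternatives used DESeq2 1.42.0, limma 3.58.1, other factors and filters, a gene-length correction (lowess, span 0.3), a replicate block, and 1 library left out at a time.

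The members and lists were chosen with earlier results of these data known. Named were all members, the other receptors, co-receptors and TIR adaptors, and the 12 further pathway genes with the smallest unadjusted p (all 12 under 0.05 unadjusted; edgeR called 0 of all genes at an adjusted p under 0.05, against 3040 at an unadjusted one). Genes at 0 in every library are named besides, as is ICAM1, the NF-kB target tested that was lower. UBE2N has 2 rows of that symbol, of which the one with more counts was used. IRF7 was not analysed here.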

Additional observations from a re-analysis of the deposited data

How the results depend on the processing

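Over the 14708 genes tested, the 2-fold rule called 161 genes (141 higher, 20 lower), and 279 without a filter, 369 with DESeq2, 327 with DESeq2 after removing genes with a 0 in any library, 1010 with limma's voom and sample quality weights, 373 on log2(FPKM + 0.1), 435 with the replicate block, 475 with the length correction and the replicate block, and 135 to 1523 with 1 library left out. At an adjusted p under 0.05, edgeR called 0 genes (3040 at an unadjusted p under 0.05), DESeq2 301 and 161 with its 2 filters, voom 8944, log2(FPKM + 0.1) 3, and the fits without 1 library 0 to 4953, the highest without gas 3.

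Of the members, 0 passed the 2-fold rule, but TLR4 did, as 1 member, with the stricter of these DESeq2 filters and with edgeR's default prior count, and 0 to 2 members did with 1 library left out. At an adjusted p under 0.05, 7 of 9 members were called by voom (5 higher, 2 lower, where 60.8% of all genes were called), and 0 to 3 with 1 library left out. For the other pathway genes, the 2-fold rule gave 2 with voom, 1 each on log2(FPKM + 1), on log2(FPKM + 0.1) and with the length correction and replicate block, and 0 to 4 with 1 library left out. The adjusted rule gave 2 with DESeq2 (BIRC3 and PTGS2), 36 with voom and 0 to 27 with 1 library left out.

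The median log2 fold change of the members, 0.21, was 0.063 on log2(FPKM + 1), 0.063 with the length correction, 0.065 with that correction and the replicate block, and 0.10 to 0.30 with 1 library left out. That of the adaptors, -0.05, was -0.13 with upper-quartile factors and -0.09 to -0.04 with 1 library left out. The 6 receptors above detection were 3 at 10 counts or at 0.1 FPKM in every library, 1 at 1 FPKM, and 6 to 7 with 1 library left out, TLR1 being added without gas 1. TLR2 changed sign to 0.015 with voom, 0.064 without gas 1, 0.091 without dCAMP 1 and 0.17 without dCAMP 2, and ran from -0.78 to 0.17 with 1 library left out. TLR5 changed sign to -0.0051 with upper-quartile factors, -0.078 with the length correction, -0.067 with that correction and the replicate block, -0.030 without gas 3 and -0.0018 without dCAMP 3, and ran from -0.030 to 0.11 with 1 library left out. CD14 changed sign to -0.0049 without dCAMP 3 and ran from there to 0.58. The causes were not tested. Over the members and pathway genes named, ICAM1 excepted, 38 values under the alternatives newly passed the adjusted threshold and 10 changed sign.

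Samples with the same replicate number had correlations of 0.13, 0.02 and 0.05 between their deviations from the group means. Those with different numbers had -0.14 to 0.09. Gas 1 and gas 2 correlated best with the dCAMP sample of their own number, but gas 3 with dCAMP 2 (0.09). These values do not settle whether the numbers pair the samples, and the main fit left them unpaired. The replicate block gave 0 member calls by either rule. Receptors other than TLR3 and TLR5 had 42 or fewer counts per library, and the fit without gas 3 changed more calls of members than any other fit with a library left out.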
